A study of Mus musculus with 6 samples.

Results

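Hepatic stellate cell markers were followed in RNA sequencing of whole mouse liver with and without LKB1. The markers were 10 genes named by symbol, Lrat, Reln, Des, Pdgfrb, Rgs5, Hgf, Ecm1, Acta2, Timp1 and Lox, and each matched 1 row among the 55450 genes of the count table. Collagens were not included. The knockout group was 3 LKB1 fl/fl mice, in which loxP sites flank the gene for the kinase LKB1 (Stk11), and the WT group was 3 mice labelled WT. Both groups were injected with AAV8 Cre at 6 weeks of age, so the controls carried the virus and the recombinase as well. The left liver lobe was taken 4 weeks later, at 10 weeks, and the strain is given as C57BL/J. AAV8 is a viral vector used to reach hepatocytes. The promoter that drove Cre is not given in the labels, and no cells were sorted, so the RNA of all liver cell types was measured together.

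Hepatic stellate cells lie between hepatocytes and the sinusoidal endothelium, where they store vitamin A as retinyl esters in lipid droplets and wrap around the sinusoid like pericytes. In injured liver they lose these droplets and become contractile, matrix-producing myofibroblasts. Lrat, Reln, Des, Pdgfrb, Rgs5, Hgf and Ecm1 are used as markers of stellate cells in the resting state or in both states, and Acta2, Timp1 and Lox as markers of activation. Several of them are shared with other cells, since vascular smooth muscle and pericytes also make Acta2, Des, Pdgfrb and Rgs5. In bulk liver, fewer cells of a type and less RNA per cell cannot be told apart.

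The libraries held 47659122 to 56147667 counts. Stk11 was at 22.1, 14.4 and 11.4 CPM, counts scaled to a common library size, in knockout replicates 1 to 3 and at 66.0, 64.1 and 69.6 CPM in WT replicates 1 to 3, and it fell by 2.06 on the log2 scale between the groups, which did not overlap (SE 0.247, edgeR adjusted p = 0.0167). Xist, the RNA of the inactive X chromosome, had 42472 counts in knockout 1 and 29243 in WT 1, where genes of the Y chromosome had at most 6. The remaining 4 libraries had 6146 or more Y-linked counts and 16 or fewer of Xist. The labels do not give this state. Results are therefore given over all 6 libraries, within the 4 libraries rich in Y-linked counts, called the Y libraries (2 against 2), and for the 2 rich in Xist, called the Xist pair (1 against 1, with no replicate check).

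None of the 9 markers that could be tested passed an adjusted p of 0.05 between knockout and WT in edgeR's quasi-likelihood test over all 6 libraries, and none had an unadjusted p under 0.05. The background was 3.37% of 14539 genes called in either direction (1.22% lower, 2.15% higher) and 26.3% with an unadjusted p under 0.05. DESeq2 and limma voom also called 0 of the 9, where they called 15.8% and 2.97% of all genes, and each gave an unadjusted p under 0.05 for 1 marker, Reln. Scaling by library size alone (3.48% of genes called), RLE size factors (3.29%) and a replicate block (0.722%) called 0 of the 9 too. Of the 9 log2 fold changes, 8 were negative, with a median of -0.52 beside 0.010 over all tested genes, of which 49% were negative. The smallest adjusted p was 0.276, for Reln. Timp1 had too few counts to be tested.

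**Figure D1:**
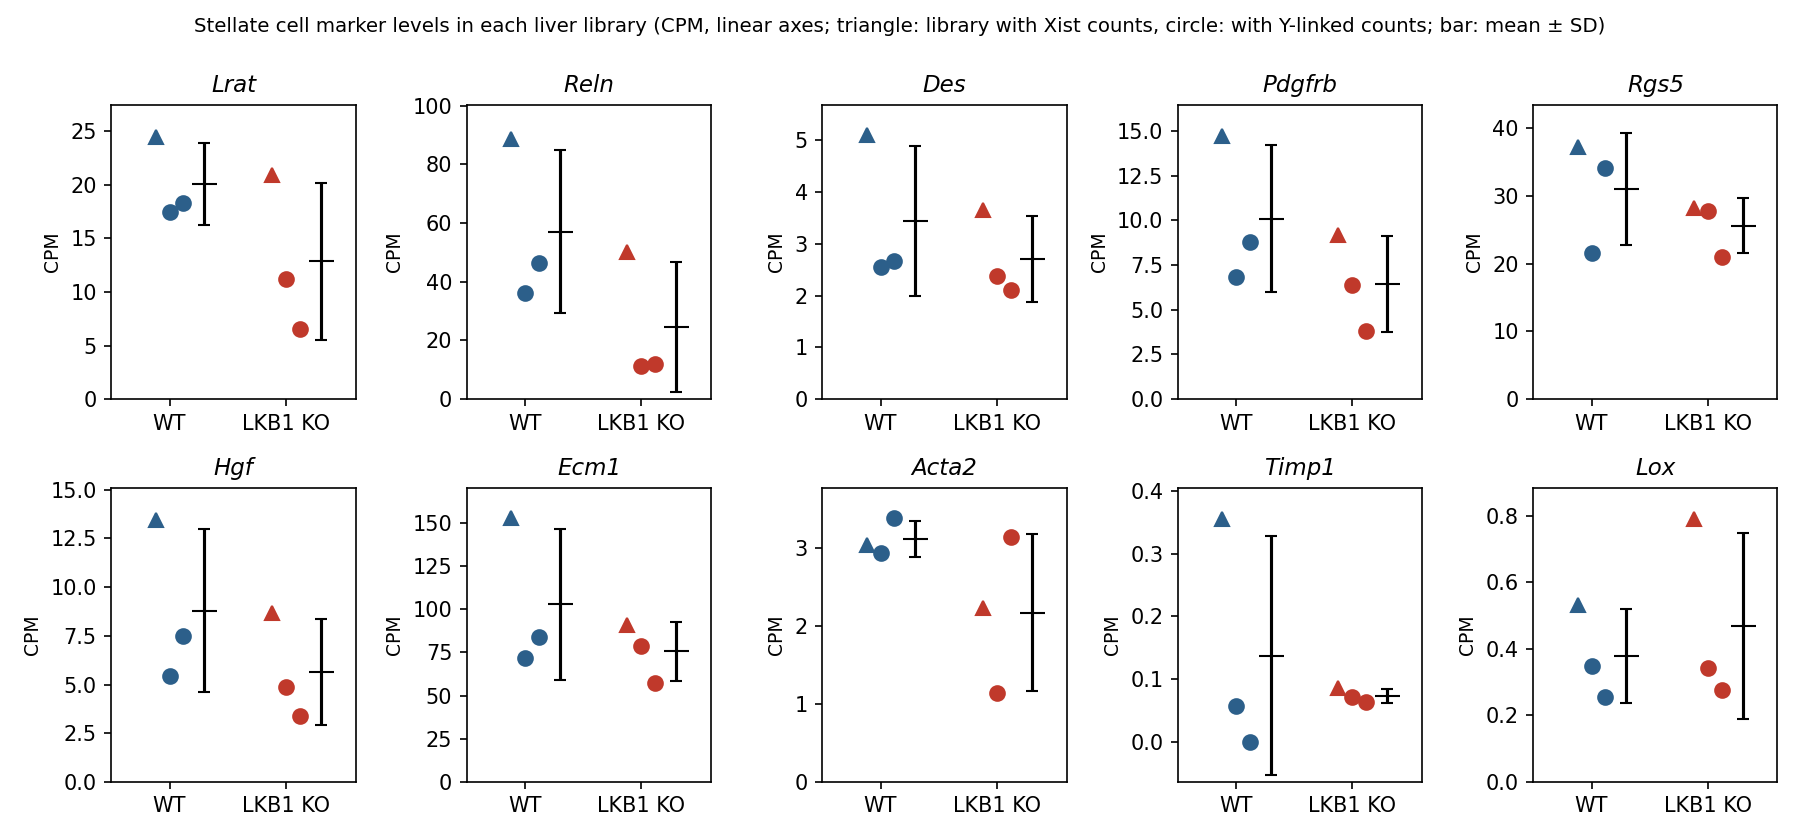
CPM of each of the 10 markers (linear vertical axes) in the 3 WT libraries (blue) and the 3 LKB1 knockout libraries (red), with the mean ± SD as a bar. Triangles mark the library with Xist counts of each group and circles the Y libraries; the WT triangle is the highest of all 6 points for 8 of the 10 markers, and the groups overlap for every marker.

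Lrat encodes lecithin retinol acyltransferase, the enzyme that esterifies retinol for storage. It lies on GRCm38 chromosome 3, 82892579 to 82903973, minus strand. Its level was 20.9, 11.2 and 6.51 CPM in knockout replicates 1 to 3 and 24.5, 17.4 and 18.3 CPM in WT replicates 1 to 3. Knockout 2 and 3 were the lowest of the 6 libraries, and knockout 1 lay within the WT range. The group means were 12.9 ± 7.32 CPM in knockout livers against 20.1 ± 3.84 CPM in WT livers (SD, n = 3 each). Its log2 fold change was -0.64 ± 0.398 (SE), with a 95% confidence interval from -1.58 to 0.30 and an adjusted p of 0.347. It came to -1.18 without knockout 1 and to -0.32 without knockout 3.

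Reln encodes reelin, a large secreted glycoprotein that in liver is made chiefly by stellate cells. It lies on chromosome 5, 21884454 to 22344702, minus strand. It was measured at 50.1, 11.4 and 12.1 CPM in knockout livers against 88.6, 36.0 and 46.5 CPM in WT livers. Knockout 2 and 3 were again below every WT library, and knockout 1 was above WT 2 and WT 3. The fitted log2 fold change was -1.22 ± 0.643 (SE), the largest in size among the 9 tested markers, with an interval from -2.74 to 0.31. Leaving out knockout 1 gave -2.29 for Reln, and leaving out WT 1 gave -0.75.

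Within the 4 Y libraries both genes were lower in knockout. The log2 fold change of Reln was -1.82 ± 0.153 (SE, adjusted p = 0.0014 in edgeR's quasi-likelihood test, 2 of 2 knockout libraries below both WT libraries), and that of Lrat was -1.01 ± 0.255 (adjusted p = 0.0319, likewise 2 of 2). These were 2 of the 9 markers, beside a background of 16.1% of 14546 genes called as lower and 33.3% called in either direction in the same fit, so the count of called markers is near what all genes give. In the Xist pair the log2 ratios were -0.82 for Reln and -0.23 for Lrat. The interaction of group with library state did not pass the threshold for either (edgeR adjusted p = 0.119 for Reln and 0.363 for Lrat). With the library state as a term over all 6 libraries, Reln alone of the 9 passed, at -1.48 (adjusted p = 0.0295; 10.3% of all genes were called in that fit, 4.99% as lower). Without knockout 1, Reln and Lrat passed, where 30.2% of all genes were called and 14.2% as lower.

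The 250 bases before the annotated start are shown for these 2 genes, because their calls depend on the libraries used, and for Ecm1, the marker with the highest level per length, which passed in neither set of libraries. They are read 5′ to 3′ on the gene's strand from RefSeq (GRCm38.p6), and capitals mark every match to the motifs listed after them.
Reln, chr5:22344706-22344955, minus strand: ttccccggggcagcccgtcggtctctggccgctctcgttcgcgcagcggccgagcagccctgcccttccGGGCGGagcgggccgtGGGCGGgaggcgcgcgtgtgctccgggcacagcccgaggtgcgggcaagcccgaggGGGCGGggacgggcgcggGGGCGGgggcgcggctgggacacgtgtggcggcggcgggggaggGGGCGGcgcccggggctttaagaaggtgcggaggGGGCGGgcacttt
Lrat, chr3:82903975-82904224, minus strand: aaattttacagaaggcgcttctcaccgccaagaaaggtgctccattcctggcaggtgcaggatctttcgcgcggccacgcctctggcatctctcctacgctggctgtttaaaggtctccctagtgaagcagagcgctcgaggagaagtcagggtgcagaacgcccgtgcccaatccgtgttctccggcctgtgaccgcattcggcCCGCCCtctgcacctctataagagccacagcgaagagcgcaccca
Ecm1, chr3:95739570-95739819, minus strand: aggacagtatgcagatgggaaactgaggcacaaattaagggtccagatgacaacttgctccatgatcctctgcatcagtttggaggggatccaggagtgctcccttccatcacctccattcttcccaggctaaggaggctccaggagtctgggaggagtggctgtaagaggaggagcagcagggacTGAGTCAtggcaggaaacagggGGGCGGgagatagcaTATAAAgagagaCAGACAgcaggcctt
The Reln window was 80.0% G and C and held 6 copies of the GC box, whereas the Lrat window was 59.2% G and C with 1 copy, and the Ecm1 window 54.0% with 1 copy.

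The motifs searched on both strands were the GC box GGGCGG, the TATA box TATAAA, the cAMP response element TGACGTCA and its half-site TGACG, which it contains, the AP-1 site TGANTCA, the SMAD-binding box CAGACA, the retinoic acid element, a direct repeat of AGGTCA with 5 bases between the copies, and the CArG box of serum response factor. Over 32851 mouse promoter windows of the same length, 32.7% held the GC box, 12.4% the TATA box, 1.55% the full cAMP element, 17.8% its half-site, 6.75% the AP-1 site, 17.1% the SMAD-binding box, 0.00913% the retinoic acid element and 1.47% the CArG box. Windows were found for 8 of the 10 markers, and Hgf had 2. A GC box was present for 5 of the 8 markers (Lrat, Reln, Des, Ecm1 and Timp1). The Ecm1 window alone held an AP-1 site and a TATA box, 64 to 58 and 27 to 22 bases before the start. The half-site TGACG was found in Timp1 alone and the SMAD-binding box in Ecm1 and Acta2. Exact matches to the full cAMP element, the retinoic acid element and the CArG box were found for 0 of the 8 markers. The CArG box was searched strictly, as CC, then A or T bases only, then GG. Near matches were not counted, so the search does not show that Acta2 or any other marker lacks a CArG element. A match describes letters and was not tested as a binding site.

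The next markers, Des, Pdgfrb and Rgs5, describe the pericyte-like side of the stellate cell. Des encodes desmin, an intermediate filament protein (chromosome 1, 75360329 to 75368579). Its level was 3.65, 2.37 and 2.10 CPM in knockout livers against 5.10, 2.54 and 2.67 CPM in WT livers. Its log2 fold change was -0.34 ± 0.36 (SE), and it was 0.053 when WT 1 alone was left out and -0.22 in the 4 Y libraries, which lack knockout 1 as well. Knockout 2 and 3 were the lowest libraries, and knockout 1 was above WT 2 and 3. Annotated genes on the opposite strand overlap exons of Des (Gm15179, 220 bp), Reln (Gm10475, 246 bp) and Lox (AC161119.1, 30 bp), and genes on the same strand overlap exons of Hgf (Gm43489, 484 bp) and Ecm1 (Mir7014, 63 bp). The use of strand in counting is not given in the sources used here, so reads in these stretches cannot be told apart.

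Pdgfrb encodes the receptor through which platelet-derived growth factors drive stellate cell growth (chromosome 18, 61045150 to 61085061). It was at 9.19, 6.37 and 3.80 CPM in knockout livers against 14.7, 6.82 and 8.78 CPM in WT livers. Knockout 2 and 3 were below every WT library and knockout 1 above WT 2 and 3. The fitted log2 fold change was -0.64 ± 0.392 (SE, interval -1.57 to 0.28, adjusted p = 0.336), with log2 ratios of -0.64 in the Y libraries and -0.67 in the Xist pair. Single libraries moved it, to -0.28 without WT 1, -0.38 without knockout 3 and -0.99 without knockout 1.

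Rgs5, a regulator of G protein signalling found in pericytes (chromosome 1, 169655501 to 169695813), was at 28.1, 27.7 and 20.9 CPM in knockout livers against 37.3, 21.6 and 34.1 CPM in WT livers, and WT 2 lay below 2 of the 3 knockout libraries. Its interval, -0.82 to 0.27 around a log2 fold change of -0.28, was the narrowest of the 9. The value ran from -0.12 (without WT 1) to -0.48 (without WT 2) on leaving out single libraries.

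Hgf and Ecm1 encode secreted proteins. Hgf, hepatocyte growth factor (chromosome 5, 16553495 to 16620152), is made by stellate and other non-parenchymal cells and acts on hepatocytes through the receptor Met. Its level was 8.66, 4.86 and 3.37 CPM in knockout livers against 13.5, 5.43 and 7.50 CPM in WT livers, and its log2 fold change came to -0.64 ± 0.442 (SE, adjusted p = 0.392). Knockout 2 and 3 were the lowest libraries. For Hgf this value was -0.20 without WT 1, -0.38 without knockout 3 and -1.10 without knockout 1. Hgf missed the threshold in the 4 Y libraries, at -0.65 with an interval from -1.30 to -0.0086 and an adjusted p of 0.106.

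Ecm1, extracellular matrix protein 1 (chromosome 3, 95734147 to 95739569), was at 90.8, 78.9 and 57.3 CPM in knockout livers against 153, 71.9 and 84.1 CPM in WT livers. WT 1 stood far above the other 5 libraries, and WT 2 and 3 lay among the knockout libraries. The log2 fold change of -0.44 ± 0.317 (SE, adjusted p = 0.406) shrank to -0.047 when WT 1 was left out and to -0.28 without knockout 3. Its log2 ratio was -0.21 in the Y libraries and -0.75 in the Xist pair.

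The markers of activation were Acta2, Lox and Timp1. Acta2, smooth muscle alpha-actin (chromosome 19, 34241090 to 34255590), was at 2.23, 1.13 and 3.14 CPM in knockout livers against 3.03, 2.93 and 3.38 CPM in WT livers. Knockout 3 lay within the WT range, and the 3 WT libraries were close together (mean 3.11 ± 0.234 CPM, SD, n = 3). Its log2 fold change was -0.52 ± 0.368 (SE, interval -1.40 to 0.35, adjusted p = 0.399), and it was -0.21 without knockout 2 and -0.89 without knockout 3.

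Lox encodes lysyl oxidase, which cross-links collagen and elastin (chromosome 18, 52516067 to 52529867). Its level was 0.789, 0.342 and 0.276 CPM in knockout livers against 0.532, 0.347 and 0.256 CPM in WT livers, from 12 to 46 counts per library. It was the only tested marker with a positive log2 fold change, 0.31 ± 0.524 (SE, interval -0.93 to 1.55), which turned to -0.30 without knockout 1.

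Timp1 encodes a tissue inhibitor of matrix metalloproteinases and lies within Syn1 on the X chromosome, 20870166 to 20874735, on the opposite strand. It had 5, 4 and 3 counts in knockout and 18, 3 and 0 counts in WT. A floor of 3 counts corresponds to 0.0514 to 0.0641 CPM per library, so 1 library, WT 1, stood clearly above it, at 0.355 CPM. No difference in Timp1 was detectable at this depth.

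Levels were compared between markers only after division by exon length. Ecm1 had the highest WT mean, at 40.9 CPM per kb, followed by Rgs5 at 6.82, Lrat at 3.75, Reln at 2.40, Pdgfrb at 1.84, Acta2 at 1.42, Hgf at 1.22, Des at 0.916, Timp1 at 0.155 and Lox at 0.0792 CPM per kb. The WT ranges of Ecm1 (28.5 to 60.7), Rgs5 (4.75 to 8.20) and Lrat (3.26 to 4.57 CPM per kb) did not overlap each other. From Lrat to Des each marker overlapped the next in this order, and Timp1 and Lox lay below all the others. Hepatocytes can also make Ecm1, and their part in its level was not tested.

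**Figure D2:**
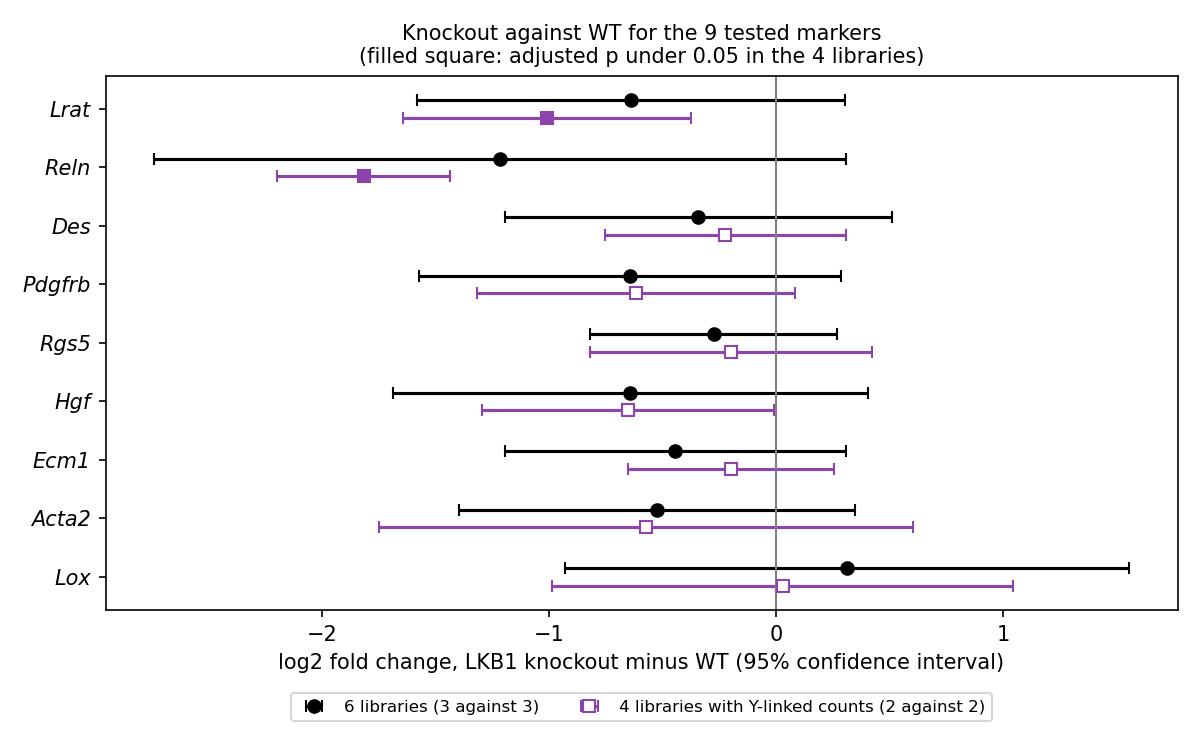
Log2 fold change of LKB1 knockout against WT for the 9 tested markers, with 95% confidence intervals, over 6 libraries (black circles, 3 against 3) and over the 4 Y libraries (purple squares, 2 against 2). All 9 intervals over 6 libraries include 0, and the filled squares, Reln at -1.82 and Lrat at -1.01, are the markers with an adjusted p under 0.05 in the 4 libraries.

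Libraries of the same group differed widely. Relative to its own WT mean, the median of the 9 tested markers was 1.46 in WT 1, 0.698 in WT 2 and 0.853 in WT 3, and 0.910, 0.631 and 0.556 in knockout 1, 2 and 3. Knockout 1 thus lay above WT 2 and WT 3, and the widest gap was between WT 1 and knockout 3. Over all 10 markers WT 1 was the highest library for 8, the exceptions being Acta2 and Lox, and knockout 3 was the lowest for 6.

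Within each library state the groups were compared again. For 8 of the 9 tested markers the log2 ratio of knockout to WT was negative both in the Y libraries and in the Xist pair, Lox being the exception, beside 32.4% of all tested genes. The median log2 ratio was -0.64 in the first and -0.47 in the second. In the Y libraries both knockouts lay below both WT libraries for 5 markers (Reln, Lrat, Pdgfrb, Hgf and Des), beside 35.4% of all tested genes. The markers share cells and libraries, so these counts are not independent of each other. The interaction of group and state was called in edgeR for 0 of the 9 and for 2.9% of all genes; 1 marker, Reln, had an unadjusted p under 0.05.

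The state itself was described with a fit that was added after the data had been seen. In CPM, without a test, the library with Xist counts was above the mean of the Y libraries in both groups for 8 of 9 markers (28.8% of all tested genes). In the fit, adjusted for group, the median log2 difference was 0.86 beside -0.0061 over all genes. The difference was 1.62 ± 0.237 (SE) for Reln and 1.06 ± 0.204 for Hgf, and 0.0056 ± 0.401 for Acta2. No marker passed an adjusted p of 0.05 in edgeR for the state (smallest 0.0968, for Reln; 0.138% of all genes were called and 0.0825% as higher in the Xist libraries), while 7 had an unadjusted p under 0.05 with a higher level in the Xist libraries, beside 11.2% of genes. The state rests on 2 libraries, both numbered replicate 1, and what else these animals share is not in the labels.

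**Figure D3:**
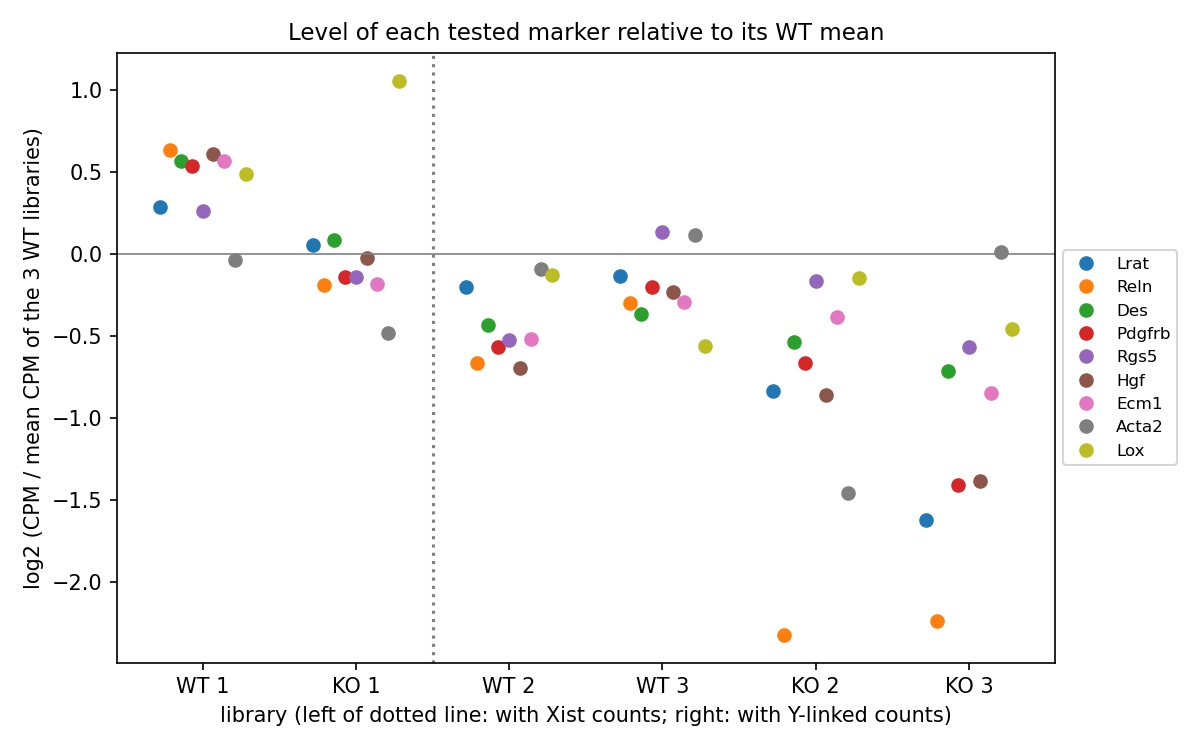
Log2 of each tested marker's CPM over its mean in the 3 WT libraries, by library, with the Xist pair left of the dotted line and the 4 Y libraries right of it; each colour is 1 gene. WT 1 is high for every marker but Acta2, knockout 1 lies near 0 apart from Lox and Acta2, and Reln is lowest in knockout 2 and 3, at about 0.2 of its WT mean.

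A wider list of stellate cell genes was examined next. Of 30 further genes written down as stellate cell genes, all were tested and 0 passed the threshold in edgeR over 6 libraries. An unadjusted p under 0.05 was seen for 3, beside 26.3% of all genes. DESeq2 called 1 of the 30, as higher in knockout, and limma voom 0, beside 15.8% and 2.97% of all genes. The median log2 fold change was -0.55, and 28 of the 30 values were negative. Steap4, a metalloreductase that hepatocytes also make, was at 188 ± 35.8 CPM in knockout livers against 88.6 ± 27.0 CPM in WT livers (SD, n = 3; log2 fold change 1.09, adjusted p = 0.0671), and Nes, the intermediate filament nestin, at 1.76 ± 0.681 and 3.79 ± 1.59 CPM (-1.10, adjusted p = 0.147). In the 4 Y libraries 13 of the 30 were lower and 1 was higher past the threshold, beside 16.1% and 17.2% of all genes. Lists of other cell types also had genes called as lower there. These were 12 of 15 for endothelium, 8 of 11 for portal fibroblasts and mesothelium, and 7 of 11 for hepatocytes. Kupffer cells had 5 of 11, lymphocytes and neutrophils 3 of 9, smooth muscle 3 of 15 and bile duct 2 of 8. Kupffer, smooth muscle, and lymphocyte and neutrophil lists each had 1 gene called as higher.

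The partners of the markers were examined by pathway, each list with its own marker included, and 0 genes of these pathways passed in edgeR over the 6 libraries. DESeq2, which called 15.8% of all genes, called 3 retinoid genes (2 higher and 1 lower in knockout) and 2 each for HGF and TGF-beta signalling (all lower). It also called 4 metalloproteinases (2 higher, 2 lower), 1 lysyl oxidase (higher) and 0 of the reelin, PDGF, Timp and Rgs lists. In the 4 Y libraries edgeR called 6 of 20 TGF-beta genes as lower and 1 as higher. Metalloproteinases there had 4 of 14 called as lower and 4 as higher. For HGF 2 of 12 were lower and 2 higher, for PDGF 1 of 7 in each direction, and 1 of 6 Rgs genes was lower. That fit called 16.1% of all genes as lower and 17.2% as higher. For retinoid storage and signalling 19 of 23 genes were tested, with 0 called by edgeR and a median of -0.40. An unadjusted p under 0.05 was seen for 7 of the 19, beside 26.3% of all genes. Dgat1, an acyltransferase that also can esterify retinol, was at 30.9 ± 10.6 CPM in knockout livers against 14.8 ± 1.17 CPM in WT livers (SD, n = 3; log2 fold change 1.07, adjusted p = 0.0696). Rdh11, a retinal reductase, was at 41.1 ± 15.7 and 86.0 ± 12.2 CPM (-1.07, adjusted p = 0.084). In the 4 Y libraries 11 of 18 tested genes of this pathway were lower and 3 higher past the threshold, beside 16.1% and 17.2% of all genes.

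Reelin binds the receptors Vldlr and Lrp8, which signal through Dab1. Vldlr was at 24.0, 15.5 and 25.1 CPM in knockout livers against 16.8, 2.00 and 1.24 CPM in WT livers, so that WT 1 lay within the knockout range. Its log2 fold change was 1.68 ± 0.914 (SE, adjusted p = 0.287) over 6 libraries and 3.63 ± 0.337 (edgeR adjusted p = 0.00184) in the Y libraries, where Reln was lower. Dab1 was at 0.265 ± 0.071 CPM in knockout livers against 0.154 ± 0.0798 CPM in WT livers (SD, n = 3), and Lrp8 had too few counts to be tested.

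Hgf is cut to its active form by proteases and signals through Met on hepatocytes. Of 12 genes of this pathway 0 passed in edgeR, and 3 had an unadjusted p under 0.05, beside 26.3% of all genes. Met was at 57.1 ± 15.8 CPM in knockout livers against 105 ± 5.30 CPM in WT livers, with no overlap of the groups (SD, n = 3; log2 fold change -0.87, adjusted p = 0.066), beside 15.5% of all tested genes with every knockout library below every WT library. Plg, plasminogen, had a log2 fold change of -0.59 (adjusted p = 0.165). Of the 7 genes of platelet-derived growth factor signalling 0 passed in edgeR and 1 had an unadjusted p under 0.05. The shares of all genes were 3.37% and 26.3%. The ligand Pdgfb was at 1.53 ± 0.286 CPM in knockout livers against 0.903 ± 0.11 CPM in WT livers (log2 fold change 0.76, adjusted p = 0.147), and the ligand Pdgfc had a log2 fold change of -0.66 (adjusted p = 0.247). Within the Y libraries Pdgfb passed as higher (0.98, edgeR adjusted p = 0.04) and Pdgfc as lower (-1.13, edgeR adjusted p = 0.0075).

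Transforming growth factor beta is the best known signal for stellate cell activation. Of its 20 ligands, receptors, binding proteins and targets 0 passed in edgeR, with a median log2 fold change of -0.27. An unadjusted p under 0.05 was seen for 5 of the 20, near the 26.3% of all genes. The co-receptors Tgfbr3 and Eng, both also made by endothelial cells, had log2 fold changes of -0.95 (adjusted p = 0.0855) and -0.57 (adjusted p = 0.144), each with every knockout library below every WT library. The 3 ligand genes Tgfb1, Tgfb2 and Tgfb3 had log2 fold changes of -0.55, 0.053 and -0.12.

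Among relatives of Timp1, Timp2 and Timp3 were tested and neither passed in edgeR over the 6 libraries. In the 4 Y libraries Timp2 was called as lower (-0.97, edgeR adjusted p = 0.0108), beside 16.1% of all genes. Timp2 was at 7.41 ± 4.56 CPM in knockout livers against 12.8 ± 6.10 CPM in WT livers, and Timp3 at 19.2 ± 3.33 and 20.6 ± 3.81 CPM (SD, n = 3). Of the 5 lysyl oxidases 0 passed in edgeR and 1 had an unadjusted p under 0.05, beside 26.3% of all genes. The log2 fold change of Loxl4 was 1.49 ± 0.442 (SE, adjusted p = 0.0982) with every knockout library above every WT library, and that of Loxl1 was -2.15 ± 0.916 (adjusted p = 0.194) with every knockout library below. Loxl3 and Loxl2 had log2 fold changes of -0.97 and -0.44, so the family did not share a direction. Within the Y libraries 1 of the 5 was called, Loxl1 as lower (-3.92, edgeR adjusted p = 0.0022), beside the same 16.1%.

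Of 18 matrix metalloproteinases, the enzymes that Timp proteins inhibit, 11 were tested and 0 passed in edgeR. An unadjusted p under 0.05 was seen for 4 of the 11, beside 26.3% of all genes. Mmp12, a macrophage elastase, was at 1.44 to 13.0 CPM in knockout livers against at most 0.256 CPM in WT livers (log2 fold change 5.32 ± 1.13, SE; adjusted p = 0.0548). Mmp15 was at 15.3 ± 7.99 CPM in knockout livers against 43.6 ± 11.3 CPM in WT livers (SD, n = 3; adjusted p = 0.0751). Of the 9 genes in the subfamily of Rgs5 6 were tested, 0 passed and 2 had an unadjusted p under 0.05, beside the same 26.3%. Rgs1 and Rgs2 had log2 fold changes of 1.07 and 1.31 (adjusted p = 0.152 and 0.185), opposite in sign to Rgs5.

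Markers of other liver cells were measured in the same libraries. DESeq2, which called 15.8% of all genes, called 8 hepatocyte genes (7 lower and 1 higher in knockout), 2 smooth muscle genes, 1 portal fibroblast or mesothelial gene, 1 bile duct gene and 0 genes of the Kupffer and lymphocyte lists. With limma voom 1 hepatocyte gene and 0 genes of the other cell type lists were called. The liver endothelial list, whose cells line the sinusoids beside stellate cells, had 15 of 15 log2 fold changes below 0 and a median of -0.75. Of its genes 0 passed in edgeR over 6 libraries, 12 had an unadjusted p under 0.05 with a lower level in knockout (11.7% of all genes), and 12 had every knockout library below every WT library (15.5% of all genes). DESeq2 called 8 of the 15 as lower, beside 7.03% of all genes. Its summed level was 190 to 297 CPM in knockout livers against 364 to 476 CPM in WT livers, without overlap, whereas the summed level of the 10 stellate markers overlapped, at 110 to 214 CPM in knockout livers against 165 to 340 CPM in WT livers. Tek, an angiopoietin receptor, was at 6.53 ± 1.22 CPM in knockout livers against 11.8 ± 1.26 CPM in WT livers (SD, n = 3; log2 fold change -0.86, adjusted p = 0.0541), and Fcgr2b had a log2 fold change of -0.79 (adjusted p = 0.0565).

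Of 15 smooth muscle and contractile genes, among them Acta2 and Des, 14 were tested and 1 passed, beside 3.37% of all genes. Tpm2, a tropomyosin, fell from 6.15 ± 2.32 CPM in WT to 1.66 ± 0.531 CPM in knockout (SD, n = 3). On the log2 scale this was -1.89 ± 0.36 (SE, edgeR adjusted p = 0.0448). The call was lost in limma voom (adjusted p = 0.0532), with a replicate block (edgeR adjusted p = 0.0512) and on leaving out any 1 library other than knockout 1 (edgeR adjusted p from 0.0842 to 0.176), with log2 fold changes of -1.54 to -2.06 in these fits. The list median was -0.60, and the WT and knockout ranges of the summed level overlapped, at 396 to 448 and 403 to 499 CPM, most of it from Cald1. The 11 tested genes of 14 for portal fibroblasts and mesothelium all had negative log2 fold changes, with a median of -1.03. They had 0 calls and 4 unadjusted p-values under 0.05 in edgeR, beside 26.3% of all genes. Among them Entpd2 and Fbln5 had values of -0.66 and -1.11 (adjusted p = 0.178 and 0.18), and the defining mesothelial gene Wt1 was at most 0.709 CPM in any library.

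Kupffer cells are the resident macrophages of the liver. Their 11 genes had 0 calls and 0 unadjusted p-values under 0.05 in edgeR over 6 libraries, where 8 of the 11 log2 fold changes were negative and the median was -0.38. The median log2 ratio was -0.80 in the Y libraries and 0.27 in the Xist pair. The scavenger receptor Marco and Cd68, which had the smallest adjusted p, were among the 3 positive genes, both at 0.56 (adjusted p = 0.228 and 0.329). In the 4 Y libraries 5 of the 11 were called as lower in edgeR, among them Vsig4 (-1.66), Adgre1 (-1.27) and Csf1r (-1.20), and Marco as higher (0.95). That fit called 16.1% of all genes as lower and 17.2% as higher. Over 6 libraries 0 of the 8 bile duct genes passed in edgeR and 1 had an unadjusted p under 0.05. The shares of all genes were 3.37% and 26.3%. The median log2 fold change of the bile duct genes was -0.11, and Sox9 was at 0.15. Of 10 lymphocyte and neutrophil genes 8 were tested and 0 passed in edgeR. An unadjusted p under 0.05 was seen for 3, of which 2 were lower and 1 was higher in knockout, beside 26.3% of all genes. The 8 log2 fold changes ran from -1.53 to 1.68, and 2 were positive. The summed level of the list was at most 4.72 CPM in any library, and Cd4 had a log2 fold change of -1.52 (adjusted p = 0.147).

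Hepatocyte genes were checked against the tissue label, and Alb was the most abundant of them in every library. Their summed level was 26964 to 78913 CPM in knockout livers against 93737 to 133089 CPM in WT livers. Of the 11 genes found, 0 passed in edgeR. An unadjusted p under 0.05 was seen for 7, of which 6 were lower and 1 was higher in knockout, beside 26.3% of all genes. The median was -0.81, and 2 of the 11 log2 fold changes were positive, up to 1.17. Apoa1 and Asgr2 had log2 fold changes of -2.07 and -0.63 (adjusted p = 0.0568 and 0.0746). The part of endothelial, hepatocyte and other cell markers in the stellate marker values was not tested.

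**Figure D4:**
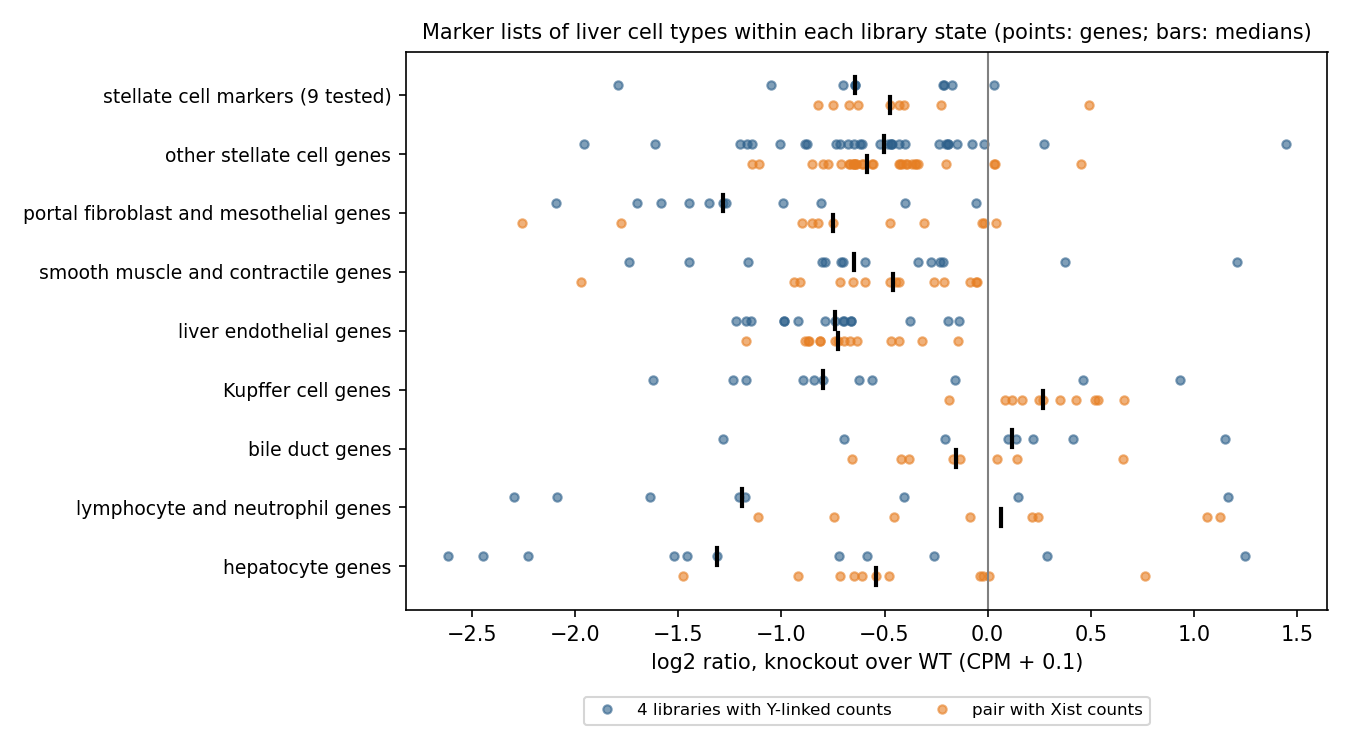
Log2 ratio of knockout to WT (CPM plus 0.1) for each tested gene of 9 cell type lists, in the 4 Y libraries (blue) and in the Xist pair (orange), with list medians as bars. Stellate, portal fibroblast, smooth muscle, endothelial and hepatocyte lists have negative medians in both sets of libraries. The medians are -0.64 and -0.47 for the stellate markers and -0.74 and -0.73 for endothelial genes. Those of the Kupffer cell, bile duct, and lymphocyte and neutrophil lists differ in sign between the sets.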

How the data were processed

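Whole-liver polyA RNA from 6 mice, 1 library per mouse, was compared (3 LKB1 knockout against 3 WT). The authors deposited 1 table of expected counts per gene, not scaled to depth. The submitters' processing notes name bcl2fastq 2.17, cutadapt 1.18, STAR 2.7.0f, RSEM 1.3.1 and the build mm9, and the use of strand is not given in the sources used here. All 55450 versioned identifiers were found in GENCODE release M21 of GRCm38, so positions and exon lengths come from that annotation.

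Groups were taken from the sample titles. Expected counts were rounded, genes were kept by filterByExpr (14539 genes), and groups were compared with edgeR 4.0.16 (TMM scaling, quasi-likelihood test, group as the only term, R 4.3.3). P-values were adjusted by Benjamini-Hochberg over all genes tested, with a threshold of 0.05. The SE is the size of the log2 fold change over the square root of F. CPM (counts per 1000000) uses TMM-scaled library sizes, and log2 ratios within a library state add 0.1 CPM. Alternatives included DESeq2 1.42.0 and limma 3.58.1. The test was checked on simulated data. The share of false calls there was above 0.05 both at 3 against 3 and at 2 against 2. Most 2-fold changes were missed at 3 against 3.

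The 10 markers and the 18 lists were chosen with earlier results of these data known. The genes named were all markers, Stk11, genes past the threshold and otherwise the 2 with the smallest adjusted p and a mean of at least 1 CPM per list, and all tested genes of the reelin, Timp and lysyl oxidase families. Other genes named were chosen after their values were seen, and some list genes are not reported here. The libraries are separate mice per the labels, and held 47659122 to 56147667 counts. Genes of a few counts, such as Timp1, are limited by counting error.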

Additional observations from a re-analysis of the deposited data

How the results depend on the processing

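Of the 9 tested markers, 0 passed under library-size scaling, RLE size factors, DESeq2, limma voom, the replicate block and no filter on low counts, 1 passed with the library state as a term (Reln) and 2 in the 4 Y libraries (Reln and Lrat). Leaving out each library gave 0 to 2, with the 2, again Reln and Lrat, without knockout 1. On leaving out each library the log2 fold change of Reln ran from -2.29 (without knockout 1) to -0.75 (without WT 1), and that of Lrat from -1.18 (without knockout 1) to -0.32 (without knockout 3). Over the 14 alternatives 7 markers kept a negative sign. On leaving out each library the log2 fold change of Des ran from -0.63 (without knockout 1) to 0.053 (without WT 1), and that of Lox from -0.30 (without knockout 1) to 0.63 (without WT 1). The adjusted p of Reln ran from 0.0014 to 0.555 and that of Lrat from 0.0251 to 0.608. The count over all genes was 490 as reported, 2290 in DESeq2, 771 with no filter, 105 with the replicate block, 1504 with the library state as a term, 4847 in the 4 Y libraries, and 6 (without WT 2) to 4473 (without knockout 1) on leaving out each library. The cause was not tested. Scaling by library size alone gave 377 higher and 129 lower, beside 313 and 177 as reported.

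The replicate numbers are shared by the titles only. Deviations from the group mean of same-numbered libraries correlated at 0.178, 0.0443 and 0.0678 for replicates 1, 2 and 3, and knockout 2 and 3 correlated best with the WT library of the other number. With the replicate block the adjusted p of Reln was 0.0731. Alternatives for the list counts and the fit of the library state were added after the data had been seen. Depth limits Timp1 and Lox, which had at most 18 and 46 counts in a library.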
